A study of Mus musculus with 30 samples.

Results

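Whole kidneys of male mice of 2 genotypes were compared 4 hours after ischemia-reperfusion injury (IRI), a stop and return of renal blood flow. These are 12 of the 30 libraries of the study, and all genes counted in them were considered: 6 libraries labelled wild type (WT) and 6 labelled TG, the genotype named Gsta2-H2BeGFP. All 12 carry the label of nephrectomy (NX, removal of a kidney) together with IRI, and 3 WT and 3 TG libraries labelled NX alone, also of males, served as a reference for the uninjured level. Age, strain background, the promoter that drives the transgene, and the time at which NX kidneys were taken are not given in the sources used here. H2BeGFP is, by its name, a histone H2B fused to enhanced green fluorescent protein (EGFP), and the annotation used for counting has an added EGFP entry. The labels do not say that replicates came from separate animals, and p-values therefore reflect only how far these libraries spread, which may be technical. Replicates are numbered from 0. Because RNA came from whole kidney, fewer cells of a type and less RNA per cell cannot be told apart in any value below.

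The product of Gsta2 is a glutathione transferase of the alpha class, an enzyme that joins glutathione to reactive lipids and toxins. The proximal tubule, the nephron segment that reabsorbs most of the filtrate, is the part of the kidney most easily harmed by a lack of oxygen. In the first hours of reperfusion its cells switch on immediate early genes, such as those of the AP-1 factors Fos and Jun, and heat shock chaperones, which refold damaged proteins; injured tubules later make KIM-1, the product of Havcr1. The comparison asks how the early injury response of TG kidneys differs from that of WT kidneys.

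The library labelled WT IRI replicate 1 went against its label. EGFP had 0 counts in the other 5 WT IRI libraries and in all 3 WT NX libraries, and 206 counts in WT IRI replicate 1, which is 2.59 CPM (the count scaled to the size of its library). In TG IRI libraries EGFP was at 1.19 CPM at the lowest, 2.19 at the median and 6.34 at the highest, so the library labelled WT sat inside the TG range. With all 12 libraries EGFP was not called (log2 fold change 2.67 ± 1.16 (SE), edgeR adjusted p = 0.326; exact two-sided permutation p = 0.0108 on log2 CPM). Once WT IRI replicate 1 was left out, EGFP in TG libraries was at least 325-fold higher, against a floor of 3 counts over the 5 remaining WT libraries (edgeR adjusted p = 0.0129; exact permutation p = 0.00216, the smallest that 5 against 6 libraries can give). That library was left out because of its EGFP counts, so these p-values follow in part from that choice and are not independent support. Because the library went against its label, called genes and list counts are given with and without it.

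**Figure D1:**
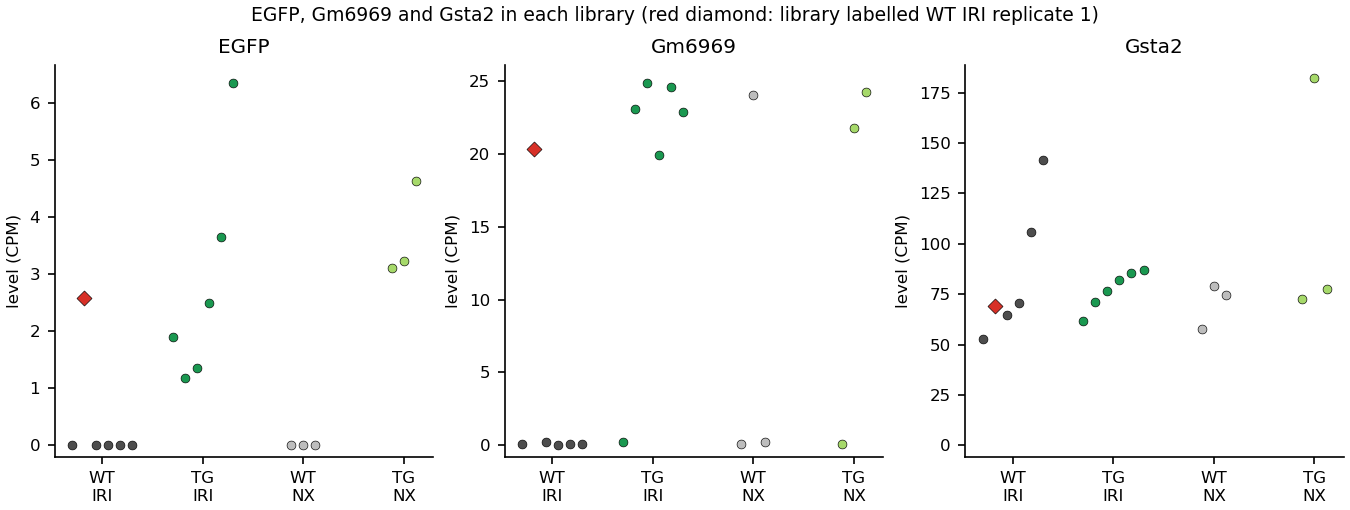
Levels of EGFP, the predicted gene Gm6969 and Gsta2 (y axes, CPM) in each WT and TG library after IRI or NX alone (x axis); the red diamond is the library labelled WT IRI replicate 1. The diamond lies among the TG libraries for EGFP, and Gsta2 overlaps between genotypes. For Gm6969 the diamond lies with most TG IRI libraries, but this gene did not follow genotype throughout. It was at 0.234 CPM in TG IRI replicate 0 and at 24.03 CPM in WT NX replicate 1.

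Gsta2 (ENSMUSG00000057933; GRCm39 chromosome 9, 78238300 to 78263070, minus strand) did not separate the genotypes after injury. It was at 52.6 CPM at the lowest, 69.8 at the median and 142 at the highest in WT libraries, and at 61.6, 79.4 and 87.2 in TG libraries. Every TG library lay inside the WT range, and the highest levels of the injured kidneys were in WT replicates 5 and 4. The log2 fold change was -0.14 ± 0.20 (95% CI -0.57 to 0.29, edgeR adjusted p = 0.806; exact two-sided permutation p = 0.842), and -0.19 without WT replicate 1 (adjusted p = 0.723). The other alpha-class transferase genes did not pass the test either: Gsta3 was at 70.5 ± 8.69 and 74.0 ± 10.5 CPM (SD, n = 6 each) and Gsta4, which acts on lipid aldehydes, at 22.5 ± 6.01 and 20.1 ± 3.27 in WT and TG libraries. Gsta1 and Gm3776, near-identical relatives among which reads may be shared, were under 1 CPM on average in both groups. Gsta2 lies close to both on chromosome 9, and whether shared reads affect its level was not tested.

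The other libraries matched their labels where this could be seen. Total counts ran from 61649151 to 90668847 in the 12 libraries. Y-linked Ddx3y was at 74.6 to 124 CPM and Xist at 0 to 0.201, as in males. The 21 genes of proximal tubule segments 1 and 2 summed to at least 25097 CPM in every library, so the labelled tissue was met. WT IRI replicate 5 stood furthest from the rest: its median correlation with the other libraries (log2 CPM over genes) was 0.965, against 0.974 to 0.980 for the 11 others. Mitochondrially encoded genes took 16.3% of its counts. Their share was also high in WT IRI replicate 4, at 15.02%, which is in the same range of library names, and 9.52 to 11.1% in the others. List counts below are given without WT replicate 5 too.

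After injury 12 of 17111 genes differed between TG and WT libraries at an edgeR adjusted p under 0.05 (0.0701%), 11 lower and 1 higher in TG. Lower were the AP-1 genes Fos, Jun and Junb, the Hsp70 chaperone genes Hspa1a and Hspa1b, and Ccn1, Rnd3, Arl4c, Apold1, Plk2 and Gas1. Havcr1 was the one gene that rose. All 12 had the same adjusted p of 0.0435, just under the threshold, and the count rested on single libraries. It was 0 without WT replicate 0, 4 or 5 or TG replicate 0, 2, 3 or 5, 19 without TG replicate 4, 35 without WT replicate 2 and 109 without WT replicate 3. Without WT replicate 1 it was 8 of 17335 genes (0.0461%), namely EGFP and Gm6969 higher and Hspa1a, Hspa1b, Arl4c, Ccn1, Jun and Gas1 lower. EGFP is no independent call among them, since that library was left out for its EGFP counts. DESeq2 called 346 genes, among them these 12.

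**Figure D2:**
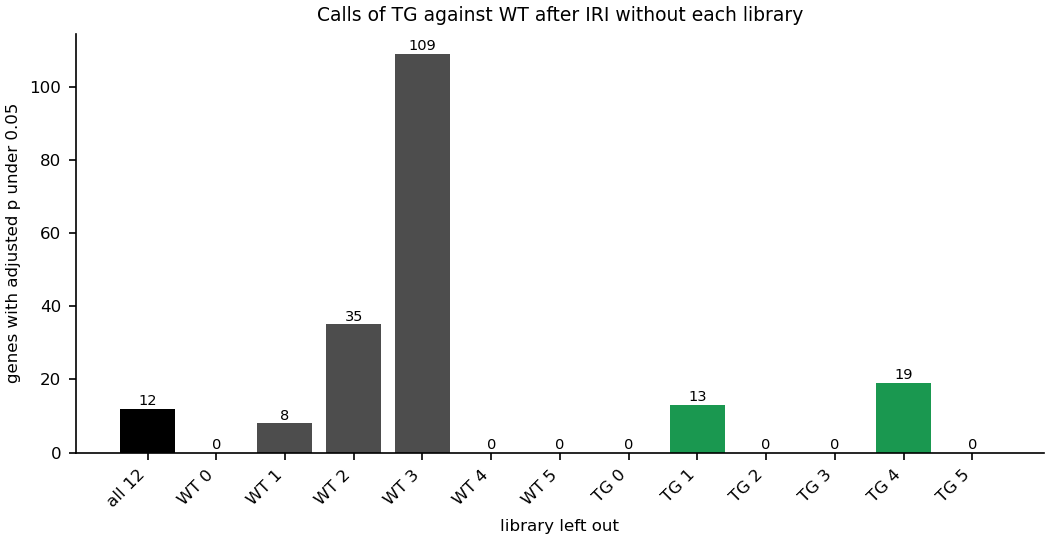
Number of genes with an edgeR adjusted p under 0.05 for TG against WT after IRI (y axis) with all 12 libraries and without each library in turn (x axis; grey WT, green TG). The count was 12 with all libraries, 0 without any of 7 libraries and 109 without WT replicate 3.

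The unadjusted p was under 0.05 for 2413 genes (14.1%), of which 1071 were higher (6.26%) and 1342 lower (7.84%) in TG libraries. With upper-quartile scaling the split was 744 higher and 1699 lower. Without WT replicate 1 it was 1061 higher and 1375 lower of 17335 genes. Without WT replicate 5 fewer genes reached this p in both directions, 847 higher and 988 lower of 17393. List counts without that library are to be read against these lower numbers. All 6 TG libraries lay above all 6 WT libraries for 56 genes (0.327%) and below them for 80 (0.468%). The fold change was below 0 for 8942 of the 17111 genes tested, and for 10268 with upper-quartile scaling. These counts and shares are the background for the gene groups that follow, in which most members did not pass the adjusted test and are given as values.

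Promoters of the called genes are shown for 4 of the 12. Plk2 holds the full cyclic AMP response element (CRE) sequence, and Fos holds its half-site without the full sequence. The windows of the Hsp70 pair are nearly the same. Most of each window lies before the start, so the windows do not show how reads of the pair were assigned. Each window is RefSeq sequence of GRCm38.p6, running from 250 bases before to 50 bases after the annotated start, 5′ to 3′ on the gene's strand. Fos lies at chr12:85473640-85473939 (plus strand), Plk2 at chr13:110394794-110395093 (plus), Hspa1a at chr17:34972107-34972406 (minus) and Hspa1b at chr17:34959189-34959488 (minus). Capitals mark TGACG or its reverse complement in Fos and Plk2, the heat shock element pair GAANNTTC in Hspa1a, and in Hspa1b the bases that differ from Hspa1a.
Fos: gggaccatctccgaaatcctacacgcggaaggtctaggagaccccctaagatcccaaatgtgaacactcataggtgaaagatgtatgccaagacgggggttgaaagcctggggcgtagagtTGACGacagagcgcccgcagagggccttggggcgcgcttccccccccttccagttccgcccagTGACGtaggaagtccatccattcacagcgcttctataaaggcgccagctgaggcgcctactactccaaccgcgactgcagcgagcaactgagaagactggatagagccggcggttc
Plk2: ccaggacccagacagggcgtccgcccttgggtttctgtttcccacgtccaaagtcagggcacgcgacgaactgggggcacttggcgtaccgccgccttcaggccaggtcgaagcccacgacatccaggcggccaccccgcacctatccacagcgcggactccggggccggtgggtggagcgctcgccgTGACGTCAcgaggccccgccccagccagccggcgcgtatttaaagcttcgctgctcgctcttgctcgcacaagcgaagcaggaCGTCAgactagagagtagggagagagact
Hspa1a: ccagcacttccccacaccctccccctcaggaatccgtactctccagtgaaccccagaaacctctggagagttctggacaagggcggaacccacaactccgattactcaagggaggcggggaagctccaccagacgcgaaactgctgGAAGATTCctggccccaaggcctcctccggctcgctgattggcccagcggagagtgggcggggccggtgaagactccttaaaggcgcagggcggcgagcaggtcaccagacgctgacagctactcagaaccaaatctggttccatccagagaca
Hspa1b: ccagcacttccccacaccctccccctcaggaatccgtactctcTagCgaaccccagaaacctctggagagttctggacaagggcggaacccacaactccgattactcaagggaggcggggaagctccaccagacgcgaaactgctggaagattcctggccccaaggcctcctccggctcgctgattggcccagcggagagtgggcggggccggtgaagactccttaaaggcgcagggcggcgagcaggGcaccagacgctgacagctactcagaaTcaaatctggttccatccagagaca

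The Hspa1a and Hspa1b windows differed at 4 of 300 bases (98.7% identical). On both strands, the CRE half-site TGACG was in a window of 7 of the 12 called genes (Apold1, Arl4c, Ccn1, Fos, Havcr1, Junb and Plk2) and in 20.8% of all 32851 promoter windows of the same length. The full CRE, TGACGTCA, which contains the half-site, was in 1 of the 12, Plk2 at position -62, and in 1.79% of all windows. The heat shock element pair (GAANNTTC or TTCNNGAA) was in 5 of the 12, Ccn1, Havcr1, Hspa1a, Hspa1b and Jun, and in 15.1% of all windows. Hspa1a and Hspa1b hold it at the same position, -104, in near-identical windows, so these are not independent matches. The pattern TGANTCA, wider than the AP-1 site in that it takes any middle base, was in 1 of the 12 and in 7.81% of windows. The match, in Havcr1, reads TGAATCA, and the stricter site was not searched. The CArG box, the site of serum response factor, was in 1 (Rnd3, 1.63% of windows). Havcr1 has 3 annotated windows and so more sequence to match, and a match is not evidence of a bound factor. Gene counts take a match in any window of the gene, while the shares are over single windows. The motifs were chosen after these windows were seen, so the counts are a description and not a test of enrichment.

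Fos, a subunit of AP-1, was higher in every injured library than after NX alone, and its injured level was lower in TG than in WT libraries. The gene (GRCm39 chromosome 12, 85520664 to 85524047) was at 301, 422 and 596 CPM (lowest, median, highest) in WT and at 148, 198 and 251 in TG libraries, against a mean of 0.374 ± 0.0810 (SD, n = 3) in WT after NX alone. The groups did not overlap. Its level fell 2.15-fold in TG libraries (log2 -1.10 ± 0.17, adjusted p = 0.0435), and the adjusted p was 0.0527 without WT replicate 1 (log2 -1.07).

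Jun, the partner of Fos (GRCm39 chromosome 4, 94937271 to 94940459), showed a larger difference and a wider spread. WT libraries ran from 585 in replicate 2 over a median of 1043 to 1604 CPM in replicate 4, and TG libraries from 261 in replicate 2 over 398 to 567 in replicate 1. The groups were apart by a narrow gap. The change was -1.36 ± 0.23 on the log2 scale, and -1.44 without WT replicate 1 (adjusted p = 0.0475). Junb, another AP-1 subunit gene, was at 157, 185 and 220 CPM in WT and 110, 130 and 144 in TG libraries, again without overlap (log2 -0.55 ± 0.09; adjusted p = 0.0632 without WT replicate 1).

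Among the 22 immediate early transcription factor genes tested, Fos, Jun and Junb passed and the other 19 did not. At an unadjusted p under 0.05, 16 were lower and 1 higher in TG libraries, the median log2 fold change was -0.51 against -0.01 over all genes tested, and for 7 members every TG library was below every WT library. Egr1, a zinc finger factor induced by growth signals, was at 686, 922 and 1220 CPM in WT and 267, 465 and 617 in TG libraries (log2 -1.01 ± 0.18, adjusted p = 0.0604). Like it, Jund (137 ± 14.3 against 101 ± 12.1 CPM), Ier2 (140 ± 18.7 against 93.9 ± 18.1) and Btg2, an inhibitor of proliferation (239 ± 23.4 against 156 ± 32.7; SD, n = 6 each), separated the groups without passing the adjusted test. Fosl1, which encodes the AP-1 subunit FRA-1, was the member on the other side, at 5.70 ± 2.47 CPM in WT and 11.02 ± 1.66 in TG libraries (log2 0.95 ± 0.24, adjusted p = 0.151). Myc, Klf4 and Maff were close to equal, at 64.0 and 73.0, 50.5 and 53.1, and 105 and 103 CPM in WT and TG libraries. The list had 15 members lower and 1 higher both without WT replicate 1 (median -0.50) and without WT replicate 5 (median -0.47).

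**Figure D3:**
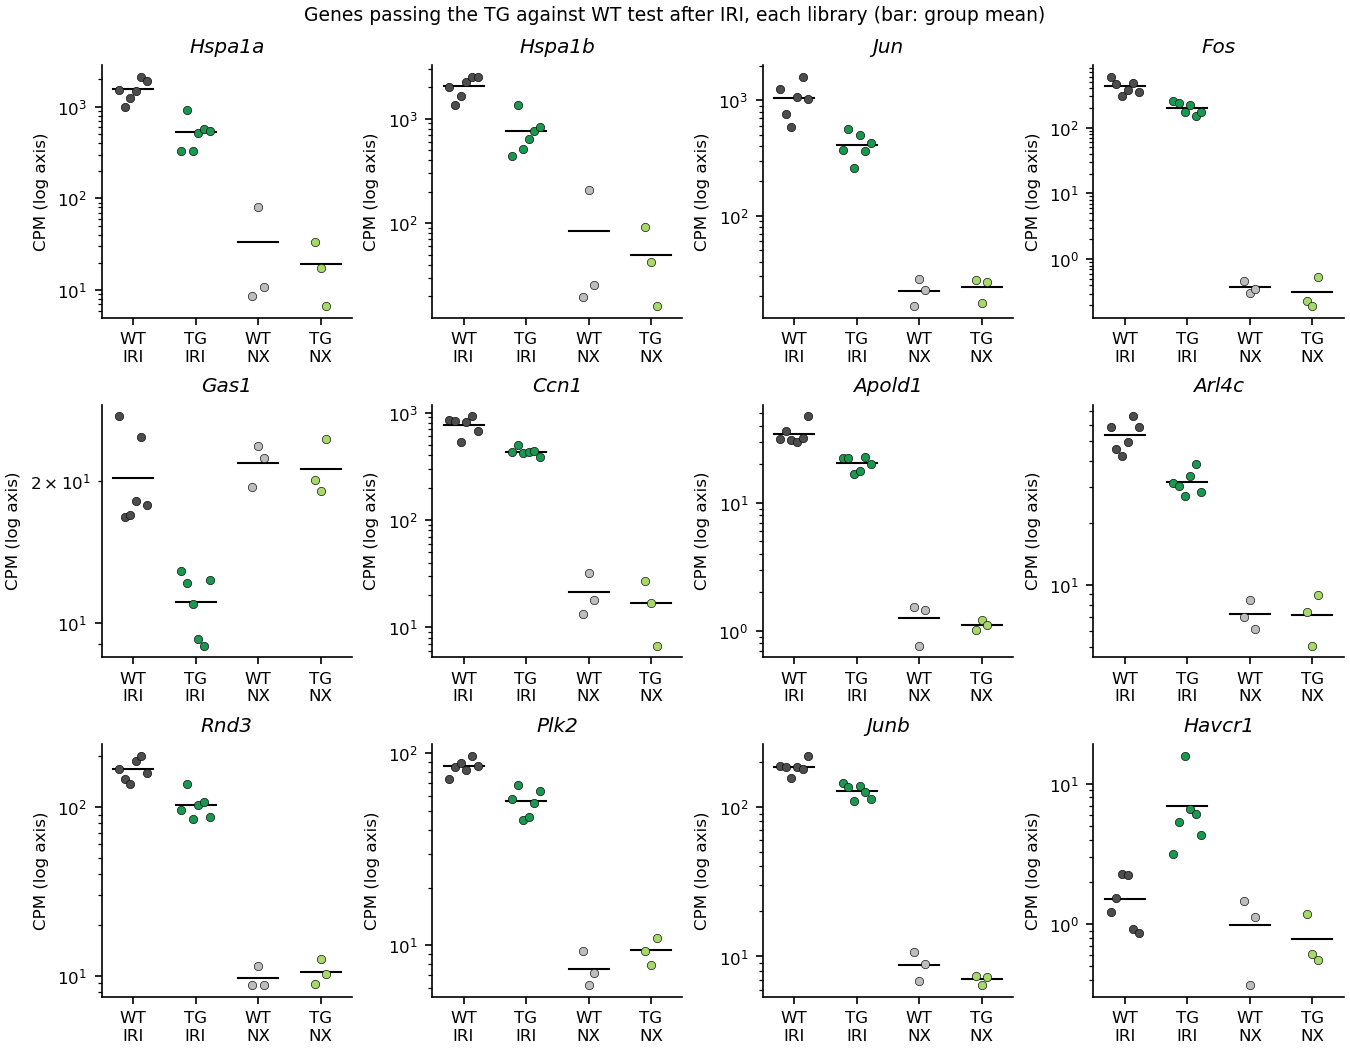
Level of each of the 12 genes that passed the TG against WT test after IRI (y axes, CPM on a log axis) in every WT and TG library after IRI and after NX alone (x axis); bars are group means. For 11 genes the 6 TG IRI libraries lie wholly on one side of the 6 WT IRI libraries, and Hspa1b overlaps by 1 library in each group.

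Of 14 MAPK phosphatase and feedback genes, which switch off the signal that induces the early genes, none passed the adjusted test, and 4 were lower and 1 higher at unadjusted p under 0.05 (median -0.07). Without WT replicate 1 or without WT replicate 5 it was 3 lower and 1 higher, with medians of -0.12 and -0.07. Dusp1, a phosphatase of stress kinases, was at 304 ± 60.6 CPM in WT and 190 ± 33.6 in TG libraries (log2 -0.69 ± 0.15, adjusted p = 0.103). Dusp5, which acts on ERK in the nucleus, was at 63.0 and 90.5 CPM in WT and TG libraries (log2 0.52 ± 0.19, adjusted p = 0.279).

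Hspa1a encodes the stress-induced Hsp70 chaperone (GRCm39 chromosome 17, 35188166 to 35191132). It was at 999, 1496 and 2117 CPM (lowest, median, highest) in WT and 326, 527 and 922 in TG libraries, so the groups did not overlap. The gene fell 2.92-fold in TG libraries (log2 -1.55 ± 0.24; -1.65 without WT replicate 1, adjusted p = 0.0392). Its neighbour Hspa1b, a near-identical copy 35175412 to 35178214 on the same chromosome, was at 1349, 2124 and 2522 CPM in WT and 435, 700 and 1363 in TG libraries, with WT replicate 1 below TG replicate 1. It fell 2.73-fold (log2 -1.45 ± 0.24). How reads that fit both copies were assigned is not given in the sources used here, so the split between the pair is uncertain. After NX alone both genes varied widely within 3 libraries, with means of 33.7 ± 41.5 and 84.0 ± 106 CPM (SD) in WT.

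Beyond the Hsp70 pair, no other of the 19 heat shock chaperone genes passed. At an unadjusted p under 0.05 9 were lower in TG libraries, pair included, and none higher, with a median of -0.32; the summed level of the list was 15881 to 23090 CPM in WT and 10517 to 19343 in TG libraries, which overlap. The 9 lower and 0 higher were also counted without WT replicate 1 (median -0.35) and without WT replicate 5 (median -0.28). Hspb1, the small heat shock protein Hsp27, was at 286 ± 79.3 CPM in WT and 164 ± 35.4 in TG libraries (log2 -0.82 ± 0.17, adjusted p = 0.103). Hspa8, the constitutive Hsp70, was at 4232 ± 804 and 3328 ± 529 (log2 -0.36 ± 0.13, adjusted p = 0.269). Cryab and Hspa4l were nearly level, at 163 and 170 CPM and at 73.7 and 75.6 CPM in WT and TG libraries.

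**Figure D4:**
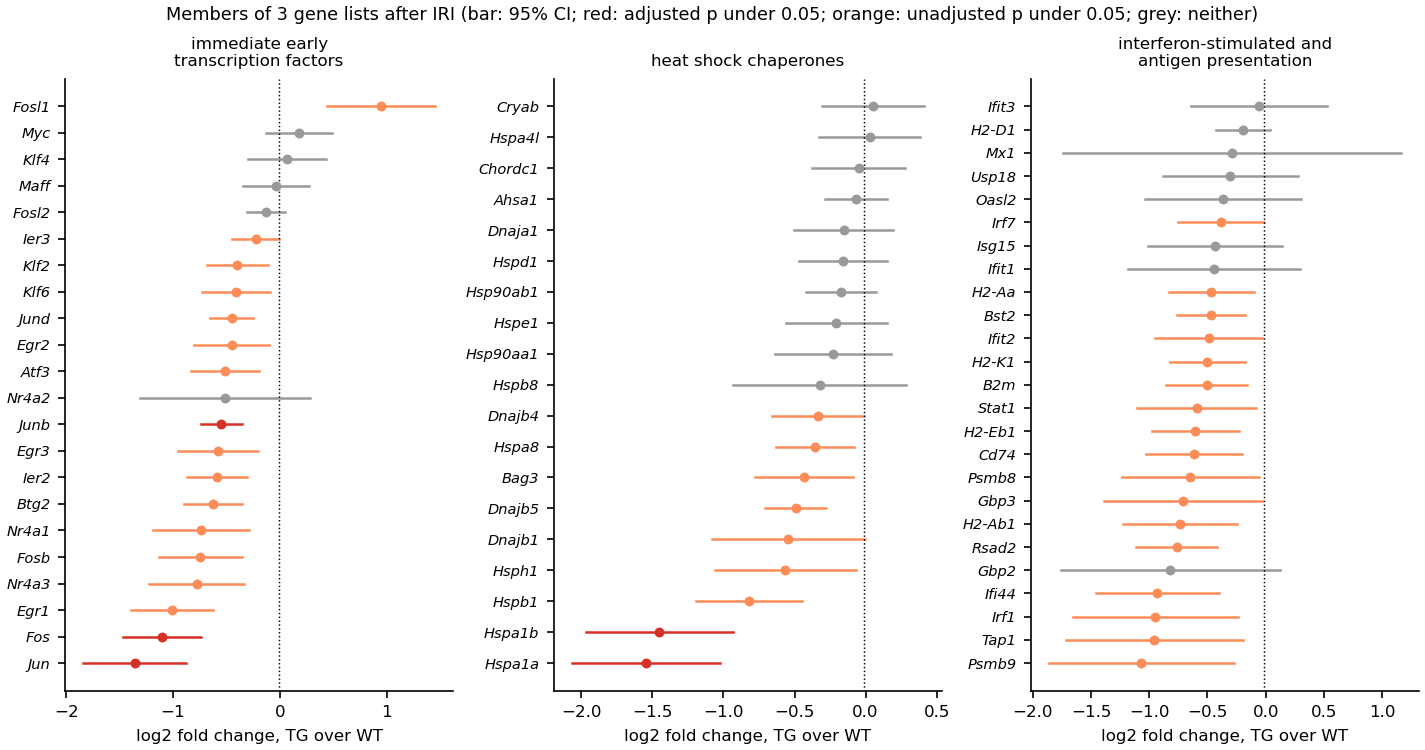
Log2 fold change of TG over WT after IRI (x axes) with its 95% CI for every tested member of 3 gene lists (y axes); the dotted line is the median of all genes tested, -0.01. The AP-1 genes Jun, Fos and Junb and the Hsp70 pair passed the adjusted test, and all 25 interferon and antigen presentation genes lie left of 0 without passing it.

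Ccn1, a matricellular protein gene that responds to stretch and to serum response factor and YAP (GRCm39 chromosome 3, 145352731 to 145355736), had the smallest p of all genes. It was at 529, 823 and 924 CPM in WT and 383, 429 and 500 in TG libraries and fell 1.79-fold (log2 -0.84 ± 0.12; -0.82 without WT replicate 1, adjusted p = 0.0392). WT replicate 2 was the lowest WT library for this gene, as for Fos, Jun, Junb, Rnd3 and Arl4c. Rnd3, whose product loosens actin fibres, was at 137, 164 and 201 CPM in WT and 85.4, 99.0 and 137 in TG libraries, with the highest TG value just under the lowest WT value (log2 -0.72 ± 0.12). Arl4c, a small GTPase of the ARF family, was at 42.5, 54.3 and 66.4 CPM in WT and 27.1, 30.9 and 38.7 in TG libraries (log2 -0.78 ± 0.12; adjusted p = 0.0392 without WT replicate 1). Of the 25 matricellular and cytoskeletal response genes tested, Ccn1 and Rnd3 passed, and the list was mixed. With both included, 5 were lower and 6 higher at unadjusted p under 0.05, with a median of -0.06. It was 5 lower and 3 higher without WT replicate 1, with a median of -0.02. Without WT replicate 5, 6 were lower and 4 higher, also with a median of -0.02.

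Of the list's members higher at unadjusted p under 0.05, 3 are given here, chosen after their values were seen. Mmp10, stromelysin 2, was at 0, 0.155 and 1.09 CPM (lowest, median, highest) in WT and 1.76, 3.57 and 5.06 in TG libraries, apart in every library but not called (log2 3.16 ± 0.76, adjusted p = 0.128). Plau, the urokinase gene, was at 450 ± 146 and 727 ± 131 CPM (log2 0.69 ± 0.18, adjusted p = 0.162), and Tnc, the gene of tenascin C, at 16.2 ± 4.59 and 27.6 ± 5.58 (log2 0.76 ± 0.18, adjusted p = 0.124). Ccn2, the close relative of Ccn1, was at 135 and 124 CPM in WT and TG libraries (log2 -0.14 ± 0.11, adjusted p = 0.606).

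The 3 other called genes on the lower side each separated the groups. Apold1, an immediate early gene of endothelial cells, was at 29.8, 31.8 and 47.4 CPM in WT and 16.7, 21.05 and 22.8 in TG libraries (log2 -0.79 ± 0.12). The 11 endothelial marker genes summed to 433 to 962 CPM in WT and 395 to 573 in TG libraries, and their part in this result was not tested. Plk2, a polo-like kinase gene that is also a p53 target, was at 73.0, 85.5 and 97.0 CPM in WT and 45.1, 56.4 and 68.4 in TG libraries (log2 -0.62 ± 0.10). For Gas1, a membrane protein gene that takes its name from growth arrest, injured TG libraries were also under the NX level. Gas1 was at 16.8, 17.9 and 27.4 CPM in WT and 8.93, 11.5 and 12.9 in TG libraries after IRI (log2 -0.89 ± 0.15; adjusted p = 0.0475 without WT replicate 1), and at 21.8 ± 2.20 in WT and 21.2 ± 2.93 in TG libraries after NX (SD, n = 3). Plk2 was the only one of 19 p53 targets to pass; 4 were lower and 0 higher at unadjusted p under 0.05, with a median of -0.03 (3 lower, median -0.01, without WT replicate 1, and 4 lower, median -0.04, without WT replicate 5).

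Havcr1, the gene of kidney injury molecule 1 (GRCm39 chromosome 11, 46625907 to 46670405), was low in all libraries at this hour and higher in TG. It was at 0.871, 1.38 and 2.26 CPM in WT and 3.18, 5.71 and 15.9 in TG libraries, the last in TG replicate 2. The groups did not overlap, and WT after NX alone was at 0.982 ± 0.557 (SD, n = 3). Havcr1 rose 4.54-fold (log2 2.18 ± 0.37, adjusted p = 0.0435; 2.19 without WT replicate 1, adjusted p = 0.0659).

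The 26 tubule injury markers tested did not move as a group. Havcr1 rose and Ccn1 fell. With both included, 3 were lower and 3 higher at unadjusted p under 0.05, and the median was 0.12. The counts were 3 and 3 without WT replicate 1 (median 0.11) and without WT replicate 5 (median 0.12). Lcn2, which encodes neutrophil gelatinase-associated lipocalin, was at 19.8 ± 9.003 CPM in WT and 25.3 ± 4.66 in TG libraries (log2 0.35 ± 0.22, adjusted p = 0.488). Krt20, a keratin of injured tubules, ran from 14.4 to 137 CPM in WT, the highest in replicate 3, and from 88.0 to 175 in TG libraries (log2 1.23 ± 0.45, adjusted p = 0.271). Spp1, the osteopontin gene, was at 1175 and 1235 CPM, Cdkn1a, the p21 gene, at 109 and 107, and Sox9, a factor of tubule repair, at 5.89 and 5.67 in WT and TG libraries.

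The 22 targets of NRF2, the regulator of antioxidant genes, had no call, 6 higher and 0 lower at unadjusted p under 0.05, and a median of 0.10 (5 higher, median 0.09, without WT replicate 1, and 6 higher, median 0.13, without WT replicate 5). Hmox1, which degrades haem, was at 127, 212 and 374 CPM in WT and 293, 453 and 508 in TG libraries (log2 0.89 ± 0.21, adjusted p = 0.126). WT replicate 3 alone lay inside the TG range, and it was also the WT library with the highest Krt20 and Lcn2. Of 18 genes of glutathione synthesis and use, a list that shares members with the NRF2 targets, none was called. At unadjusted p under 0.05, 4 were higher and 0 lower, with a median of 0.06. It was 4 and 1 without WT replicate 1 (median 0.08) and 5 and 0 without WT replicate 5 (median 0.07). Gss, glutathione synthetase, is in this list only. It was at 185 to 249 CPM in WT and 282 to 299 in TG libraries, apart in every library (log2 0.31 ± 0.07, adjusted p = 0.106). Gclc, the rate-limiting subunit of glutathione synthesis, was at 315 ± 77.9 and 443 ± 52.2 CPM (log2 0.48 ± 0.13, adjusted p = 0.172). Of the 17 transferase genes outside the alpha class, none was called, and 2 were higher and 3 lower at unadjusted p under 0.05 (2 and 2 without WT replicate 1, and 2 and 1 without WT replicate 5).

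Among 16 genes of proximal tubule segment 3, the straight part, 7 were higher and 0 lower in TG libraries at unadjusted p under 0.05, none passed the adjusted test, and the median was 0.23. Cyp7b1, an oxysterol hydroxylase, was at 18.7, 69.6 and 118 CPM in WT and 106, 191 and 293 in TG libraries (log2 1.43 ± 0.32, adjusted p = 0.107). The protease gene Napsa was at 450 ± 104 and 693 ± 168 CPM (log2 0.61 ± 0.16, adjusted p = 0.168). For both genes WT replicate 5 was the lowest library, and without it 6 members were higher and the median was 0.15. Without WT replicate 1 it was 7 higher with a median of 0.25. After NX alone Cyp7b1 was at 234 ± 34.6 and Napsa at 999 in WT on average. The 21 genes of segments 1 and 2 had 2 higher and 1 lower at unadjusted p under 0.05 and a median of -0.02 (3 and 2, median -0.05, without WT replicate 1, and 2 and 0, median -0.06, without WT replicate 5). Slc34a1, their phosphate transporter gene, was at 6329 and 5878 CPM in WT and TG libraries. The 19 male-biased kidney genes had 4 higher and 0 lower (median 0.20), 2 of which, Cyp7b1 and Slc22a7, are also in the segment 3 list. It was 6 higher without WT replicate 1 (median 0.20) and 4 higher without WT replicate 5 (median 0.08).

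Marker lists of the later nephron segments had medians below 0, with no called gene. All 7 thick ascending limb genes had a fold change below 0, with 1 lower at unadjusted p under 0.05 and a median of -0.25 (2 lower, median -0.27, without WT replicate 1, and 1 lower, median -0.06, without WT replicate 5). Umod, the uromodulin gene of that segment, was at 2816 ± 651 CPM in WT and 2135 ± 381 in TG libraries (log2 -0.41 ± 0.15, adjusted p = 0.265). All 7 distal convoluted and connecting tubule genes were below 0 too, with 1 lower and a median of -0.20 (1 lower without either replicate, with medians of -0.22 and -0.08). Collecting duct principal cell genes had 6 of 8 below 0, 2 lower and a median of -0.21 (2 lower without either replicate, with medians of -0.21 and -0.09). Intercalated cell genes had 7 of 8 below 0, 2 lower and 1 higher, and a median of -0.21 (3 lower and 0 higher, median -0.26, without WT replicate 1, and 2 lower and 1 higher, median -0.11, without WT replicate 5).

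No inflammatory gene passed the adjusted test. In the list of 26 genes of cytokines, chemokines and NF-kB feedback, 9 were lower and 1 higher at unadjusted p under 0.05, with a median of -0.29 (8 lower and 1 higher, median -0.30, without WT replicate 1, and 7 lower and 1 higher, median -0.17, without WT replicate 5). Nfkbiz, a co-regulator of NF-kB targets, was at 52.1 to 60.7 CPM in WT and 28.7 to 49.9 in TG libraries, without overlap (log2 -0.61 ± 0.12, adjusted p = 0.0895). Il1b, an inflammasome cytokine gene, was at 8.29, 9.44 and 20.2 CPM in WT and 1.28, 2.81 and 9.67 in TG libraries, where replicate 4 was the highest and the other 5 were all under 4 CPM (log2 -1.64 ± 0.42, adjusted p = 0.155). Il6 was at 6.56 ± 1.82 and 3.56 ± 2.12 (log2 -0.89 ± 0.35, adjusted p = 0.289). The neutrophil attractant gene Cxcl1 was at 51.9 and 54.3 CPM and the monocyte attractant gene Ccl2 at 5.08 and 4.99 in WT and TG libraries.

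All 25 interferon-stimulated and antigen presentation genes had a fold change below 0, 17 with an unadjusted p under 0.05, none called, and a median of -0.51. B2m, the light chain of MHC class I, was at 200, 249 and 397 CPM in WT and 173, 201 and 238 in TG libraries (log2 -0.51 ± 0.16, adjusted p = 0.231). Tap1, the peptide transporter of class I, ran from 6.27 to 41.5 CPM in WT, the highest in replicate 2, and from 6.997 to 10.2 in TG libraries (log2 -0.96 ± 0.36, adjusted p = 0.281). The antiviral gene Rsad2 was at 22.9 ± 6.60 and 13.6 ± 1.89 (log2 -0.76 ± 0.16, adjusted p = 0.105). Both groups overlapped for every gene of the list, and 19 members were lower at unadjusted p under 0.05 without WT replicate 1 (median -0.60) and 13 without WT replicate 5 (median -0.45).

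No blood cell marker gene passed the adjusted test, and their values are given beside these groups. All 6 red cell genes tested were lower in TG libraries at unadjusted p under 0.05, with a median of -2.88 (6 lower without either replicate, with medians of -2.96 without WT replicate 1 and -2.21 without WT replicate 5), and their list summed to 132 to 1338 CPM in WT and 44.9 to 170 in TG libraries. Hba-a1, an alpha globin gene, was at 50.6, 163 and 510 CPM in WT and 11.9, 16.1 and 60.2 in TG libraries (log2 -3.04 ± 0.54, adjusted p = 0.0604). The highest WT library was replicate 5, the lowest WT replicate 3 and the highest TG replicate 4. Hbb-bt, a beta globin gene, was at 3.15, 9.26 and 49.1 CPM in WT and 0.348, 1.17 and 3.08 in TG libraries, without overlap (log2 -3.47 ± 0.63, adjusted p = 0.0604). After NX alone the same direction was seen, with Hba-a1 at 28.8 ± 23.9 in WT and 3.84 ± 3.33 in TG libraries (SD, n = 3; log2 -2.88, adjusted p = 0.577).

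Of 7 neutrophil genes 6 were lower at unadjusted p under 0.05 (median -1.29). It was 6 without WT replicate 1 (median -1.36) and 3 without WT replicate 5 (median -0.98). The list summed to 26.7 to 99.0 CPM in WT and 6.42 to 43.6 in TG libraries, and Ly6g, a defining marker, was near 0 in both groups. S100a9, a calprotectin subunit gene, was at 7.72, 11.1 and 37.8 CPM in WT and 1.86, 4.66 and 18.2 in TG libraries, the highest in WT replicate 5 and TG replicate 4 (log2 -1.34 ± 0.53, adjusted p = 0.292). Of 11 macrophage and monocyte genes 7 were lower and 1, Csf1r, higher at unadjusted p under 0.05 (median -0.43), while the list sums overlapped at 88.6 to 136 CPM in WT and 99.7 to 118 in TG libraries. Without WT replicate 1 it was 7 lower and 1 higher (median -0.52), and without WT replicate 5 5 lower and 1 higher (median -0.36). T, B and NK cell genes had 2 of 7 lower (median -0.71), 5 lower without WT replicate 1 (median -0.85) and 0 without WT replicate 5 (median -0.72). Endothelial genes had 4 of 11 lower (median -0.29), 3 without WT replicate 1 (median -0.32) and 0 lower and 1 higher without WT replicate 5 (median -0.14). Podocyte genes had 4 of 7 lower (median -0.38), also 4 without WT replicate 1 (median -0.39) and without WT replicate 5 (median -0.19). Mitochondrially encoded genes had 4 of 13 lower and a median of -0.31. It was 9 lower without WT replicate 1 (median -0.33), 1 lower without WT replicate 5 (median -0.19) and 9 lower under upper-quartile scaling. Without WT replicate 5 no gene was called, as was also so without several other libraries. Whether the makeup of blood or immune cells bears on the called genes was not tested.

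**Figure D5:**
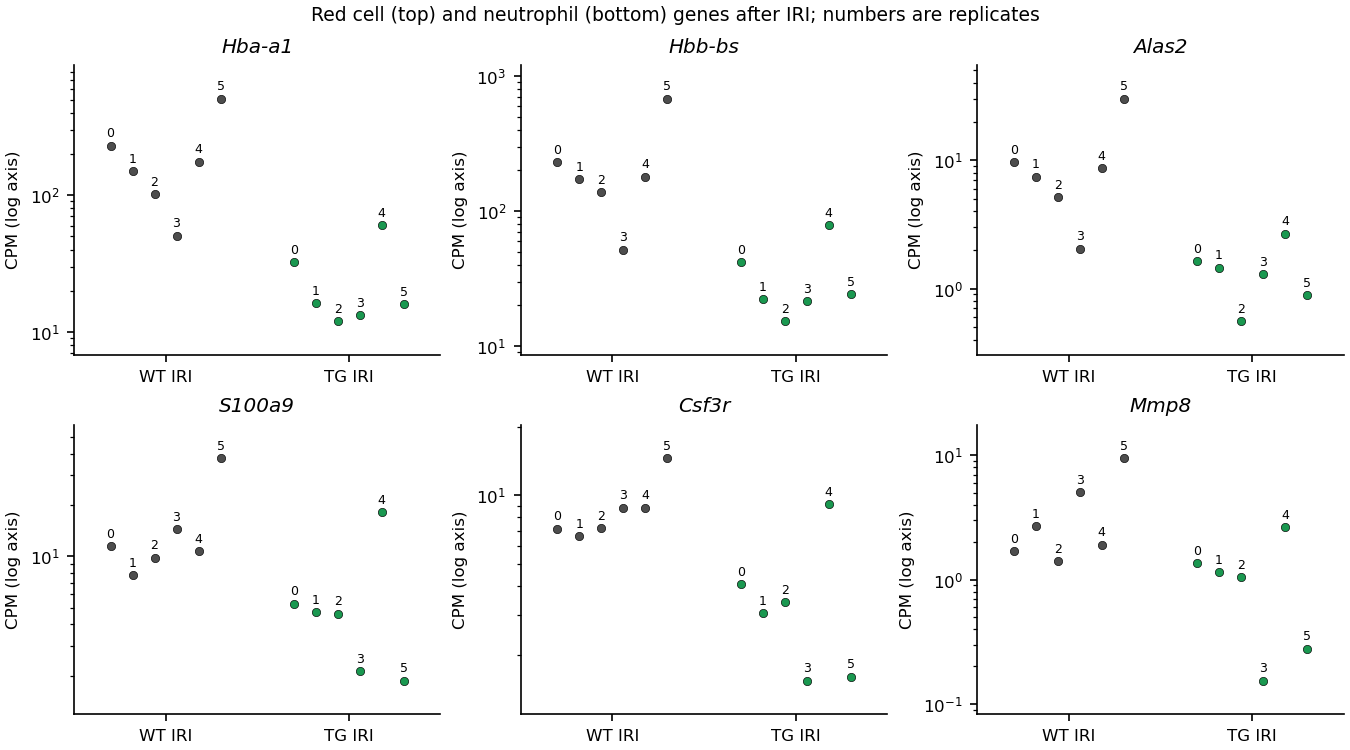
Levels of 3 red cell genes (top row) and 3 neutrophil genes (bottom row) in each WT and TG library after IRI (y axes, CPM on a log axis; numbers are replicates). WT replicate 5 is the highest WT library in all 6 panels and TG replicate 4 the highest TG library.

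The library names fall into 3 ranges, 465 to 473, 483 to 487 and 506 to 508, which the labels do not call batches. Each range holds both genotypes. Since the groups do not overlap for 11 of the 12 called genes, the direction within a range is fixed for these and the sizes are given as a description. The mean log2 difference of TG and WT for Fos was -0.84, -1.05 and -1.24 in these ranges, that of Hspa1a -1.16, -1.70 and -1.89, and that of Havcr1 0.76, 1.34 and 1.13 (log2 of CPM with a prior count of 2). With the range as a covariate edgeR called 0 genes, with 1705 at an unadjusted p under 0.05.

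The difference between genotypes after IRI was also set against that after NX alone, in a fit of all 18 libraries. No gene of 19264 passed edgeR's test of this interaction (0%), with 1848 (9.59%) at an unadjusted p under 0.05, and DESeq2 called 37. For Fos the interaction was -0.85 on the log2 scale (adjusted p = 0.585), for Jun -1.44 (adjusted p = 0.376), for Hspa1a -0.73 (adjusted p = 0.809) and for Havcr1 2.501 (adjusted p = 0.376). The genotype difference of these genes after injury was thus not shown to differ from that after NX, where none of the 12 genes passed.

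Genes with the smallest p on the higher side after Havcr1 are given as values that did not pass. They were taken only from genes with a symbol that are not predicted genes and reach a mean of 1 CPM in the higher group. Cyp51, an enzyme of cholesterol synthesis, was at 150, 167 and 193 CPM in WT and 196, 230 and 261 in TG libraries, without overlap (log2 0.44 ± 0.08, adjusted p = 0.0604). Akr1c18, a hydroxysteroid dehydrogenase gene, was at 4.06 ± 2.05 and 16.3 ± 8.79 CPM (log2 1.998 ± 0.37, adjusted p = 0.0604), and at 21.5 ± 6.49 in WT after NX. Neurog2, at 0.706 ± 0.331 and 2.77 ± 1.17 CPM (adjusted p = 0.0768), came next. Ugdh, which makes UDP-glucuronic acid, was at 92.4 ± 14.2 and 134 ± 17.3 (log2 0.53 ± 0.10, adjusted p = 0.0780). Inhba, an activin subunit gene, was at 0.961 ± 0.343 and 2.58 ± 0.866 (adjusted p = 0.0892), and Apob, the apolipoprotein B gene, at 133 ± 15.3 and 210 ± 52.6 (log2 0.65 ± 0.13, adjusted p = 0.0904). Entpd5 (436 and 552 CPM), Serpinb8 (17.4 and 39.2) and Rffl (32.8 and 42.5 in WT and TG libraries) followed, with adjusted p from 0.102 to 0.103. Of 19 cholesterol synthesis genes 4 were higher and 1 lower at unadjusted p under 0.05, with a median of 0.04 (5 and 1, median 0.0046, without WT replicate 1, and 4 and 1, median 0.14, without WT replicate 5).

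Several other lists had no called member and are given by their counts at unadjusted p under 0.05, with the counts and medians without WT replicate 1 and then without WT replicate 5 in brackets. Fatty acid oxidation genes, which serve the main fuel of the proximal tubule, had 4 of 24 higher and 0 lower, with a median of 0.10 (3 higher, 0.09, and 4 higher, 0.10). Brush border and peroxisome genes had 5 of 19 higher and 0 lower, with a median of 0.08 (5 higher and 1 lower, 0.14, and 4 higher, 0.07). Nuclear-encoded respiratory chain genes had 0 of 24 in either direction in all 3 fits, with medians of -0.01, -0.01 and 0.02. Circadian clock genes had 3 higher and 5 lower of 18, with a median of -0.06 (1 and 5, -0.02, and 2 and 5, -0.13). Unfolded protein response genes had 3 higher and 3 lower of 20, with a median of -0.03 (3 and 3, 0.02, and 2 and 2, -0.03). Hypoxia and glycolysis genes had 2 higher and 1 lower of 25, with a median of -0.04 (1 and 1, -0.04, and 1 and 1, -0.0017). Cell death genes had 1 higher and 2 lower of 20, with a median of -0.15 (2 and 4, -0.13, and 1 and 0, -0.13). Cell cycle genes had 0 of 21 in either direction in all 3 fits, with medians of -0.21, -0.18 and -0.16. Fibroblast, pericyte and smooth muscle genes had 0 of 11 in all 3 fits too, with medians of -0.11, -0.13 and -0.06.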

How the data were processed

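Poly-A RNA of whole kidney was sequenced as paired reads, per the labels' protocols. Per the submitters' processing notes the authors used fastp 0.23.2, STAR 2.7.0 and featureCounts 2.0.3 with GRCm39. The authors deposited integer counts for each gene, not normalized. The file header's option settings are not legible, so whether strand, pairs or multiply mapped reads were counted is not given in the sources used here. The share of odd values among counts of at least 10 was 37.8 to 41.9% by library, and halved counts were an alternative.

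The table holds 57133 genes, of which 51880 (90.8%) were given a symbol by Ensembl identifier from GENCODE M21. TG and WT libraries after IRI were compared with edgeR 4.0.16 in R 4.3.3: two-sided quasi-likelihood test, TMM factors, filterByExpr, Benjamini-Hochberg adjusted p under 0.05 over all genes tested, 6 libraries a group. The interaction with injury used all 18 NX and IRI libraries. Levels are CPM scaled by TMM factors of the 18 libraries. Depth of 61649151 to 90668847 counts limits only the lowest genes, and the floor of 3 counts covers counting error only. The test was tested on simulated data. No 2 libraries were copies (chi-square per degree of freedom 39.8 to 287 over 66 pairs).

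Genes and lists (29 pathway and 15 cell type lists) were chosen with earlier results of these data known, and lists are described by counts and medians, with no test. Named are EGFP, the alpha-class transferases, every called gene, genes of smallest p where fewer than 10 were called in a direction, the member of smallest p and the most abundant member of lists, and a fixed set of injury and kidney genes. Other list members, and the promoter motifs, were chosen after values and windows were seen. Promoter windows (12 of 12 called genes matched) are RefSeq of GRCm38.p6, another build than the counts. Alternatives were RLE and upper-quartile factors, no filter, DESeq2 1.42.0, limma-voom (limma 3.58.1), other sets of libraries, robust dispersions and covariates. The exact permutation test used log2 of CPM plus 0.1.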

Additional observations from a re-analysis of the deposited data

Results flagged for a closer look

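In 72 groups of 6 libraries 5 values lay far from the others of their group by Dixon's test, and chance flags about 1 in 20 groups. EGFP was at 2.59 CPM in WT IRI replicate 1 and at 0 in the other 5 WT IRI libraries. The predicted gene Gm6969 was at 20.3 CPM in the same library, against 0.0322 to 0.205 in the other WT IRI libraries. In the TG IRI group Gm6969 was at 0.234 CPM in replicate 0, against 19.9 to 24.8 in the others. After NX alone Gm6969 was at 24.03 CPM in WT replicate 1 and 0.124 and 0.225 in the other WT libraries, and at 0.0623, 21.8 and 24.2 in the TG libraries, so its high and low levels did not follow genotype there. Without WT IRI replicate 1 it was called higher in TG libraries (log2 7.43, edgeR adjusted p = 0.0129). Neurog2, a neural transcription factor gene, was at 0.134 CPM in WT IRI replicate 5, against 0.522 to 0.997 in the others. Gsta3 was at 87.7 CPM in WT IRI replicate 3, against 64.0 to 70.3 in the others.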

How the results depend on the processing

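The count of 12 genes was 43 with no count filter, 346 (107 higher, 239 lower) with DESeq2, 22 with all 18 libraries in the fit and 0 with the library name range as covariate; leaving out 1 library gave 0 to 109. Chosen after seeing the data, robust dispersions gave 1 gene, and leaving out WT replicates 1 and 5 together gave 1. RLE factors and halved counts gave 12, upper-quartile factors 13 and limma-voom 15. Each of the 12 genes passed in 9 to 13 of the 23 alternatives; leaving out libraries cannot turn the direction of the 11 whose groups do not overlap. Fos ranged from -1.19 to -0.98 on the log2 scale, Hspa1a from -1.77 to -1.42 and Havcr1 from 1.75 to 2.33. Gsta2, not called in any, was above 0 in 3 of 23. The replicate block gave 5 genes, 4 of them among the 12; same-numbered libraries had correlations of -0.03 to 0.06, so the numbers do not pair them. For the interaction DESeq2 called 37 genes and RLE factors, the replicate block and the 17 libraries without WT replicate 1 gave 0. Genes under about 1 CPM, such as Tnf, rest on few reads.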
